A study of Mus musculus with 18 samples.

Results

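The cytosolic ribosomal protein genes encode the protein part of the ribosome that translates nuclear mRNAs. They were taken by symbol: every gene whose symbol began with Rps or Rpl followed by a number, with an optional a, l or x, or was Rplp0, Rplp1 or Rplp2, was a member. The rule found 79 genes among the 20321 of the expression table, 30 of the small and 49 of the large subunit, and did not use any expression value. It left out ribosomal proteins with other symbols, such as Rpsa and Fau. It also left out S6 kinases, and a separate entry spelled RPL24 in capitals.

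The cells came from 1 mouse embryonic stem (ES) cell line, GFP-Bry, in which GFP reads out the mesodermal gene Brachyury. Differentiated cells were taken at day 3 as embryoid bodies, and Brachyury-positive cells were sorted by endoglin (Eng, written E) and Flk-1 (encoded by Kdr, written F) into E+F+ and E+F- populations. Unsorted cells were not gated on these proteins. Each population was reaggregated for 24 h either with the vehicle DMSO or with 10 µM IWR-1, an inhibitor of canonical Wnt signalling. RNA was sequenced from 3 libraries per group, 18 in all, numbered Set 1 to Set 3 in every group, and the study describes them as independent biological samples. All 6 groups carry the same reporter allele of this single line.

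A ribosome joins a small subunit, which reads the mRNA, to a large subunit, which forms the peptide bond, and each ribosomal protein is needed in about equal number. The mRNAs of these proteins usually begin with a run of pyrimidines, the 5′ terminal oligopyrimidine (TOP) motif, through which mTOR signalling controls their translation as a group. Loss of 1 copy of several of these genes causes Diamond-Blackfan anaemia, a failure of red cell production. In sequencing data they are among the most abundant mRNAs of growing cells.

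Sequences around the RefSeq start were available for 59 of the 79 members and are shown for 9 of them: Rps10 and Rpl38 as examples of a pyrimidine run at the start, Rpl7a for the longest run, Rpl26 and Rps3 for their differences between populations, Rps2 and Rps15 for the weakest differences with IWR-1, and Rpl10 with its single-exon paralog Rpl10l. Each line gives the 40 bases before the start and the first 30 bases of the transcript on the gene's strand, 5′ to 3′, in build GRCm38.p6, with the longest run of C and T of at least 6 bases in capitals. The windows are chr17:27635215-27635284 (-) for Rps10, chr11:114668540-114668609 (+) for Rpl38, chr2:26910767-26910836 (+) for Rpl7a, chr11:68901526-68901595 (+) for Rpl26, chr7:99483680-99483749 (-) for Rps3, chr17:24720023-24720092 (+) for Rps2, chr10:80292391-80292460 (+) for Rps15, chrX:74270776-74270845 (+) for Rpl10 and chr12:66284372-66284441 (-) for Rpl10l.
Rps10: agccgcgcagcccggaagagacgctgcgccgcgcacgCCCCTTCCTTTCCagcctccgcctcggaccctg
Rpl38: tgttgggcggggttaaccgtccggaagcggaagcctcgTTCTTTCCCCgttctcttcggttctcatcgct
Rpl7a: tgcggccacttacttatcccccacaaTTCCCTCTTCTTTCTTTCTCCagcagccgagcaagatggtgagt
Rpl26: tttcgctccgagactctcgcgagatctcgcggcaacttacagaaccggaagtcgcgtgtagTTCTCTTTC
Rps3: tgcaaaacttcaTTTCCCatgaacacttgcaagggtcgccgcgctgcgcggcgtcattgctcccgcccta
Rps2: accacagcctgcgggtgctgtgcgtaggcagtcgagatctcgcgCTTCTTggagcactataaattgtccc
Rps15: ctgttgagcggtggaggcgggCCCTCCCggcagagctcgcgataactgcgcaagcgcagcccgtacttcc
Rpl10: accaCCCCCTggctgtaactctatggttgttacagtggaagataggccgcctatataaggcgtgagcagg
Rpl10l: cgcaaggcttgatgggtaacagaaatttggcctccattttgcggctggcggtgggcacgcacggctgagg

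In Rps10, Rpl38 and Rpl7a the pyrimidine run, of 13, 10 and 21 bases, spanned the annotated start. By the RefSeq start, a run of 9 bases lay inside the transcript in Rpl26, up to the end of the line shown. In Rpl10, Rps3 and Rps15 the longest run lay before that start. The GENCODE annotation begins Rpl26 at chr11:68901583 and Rps3 at chr7:99483738, each just before the run shown. Run positions, and the shares that follow, therefore depend on the annotated start. Rpl10l had no run of 6 bases or more. Among all 59 members with a window, 29 (49.2%) held a pyrimidine run of at least 8 bases within 20 bases of the start, against 18.4% of 27025 genes. A C followed by at least 4 more pyrimidines stood exactly at the start in 13 members (22.0%), against 3.01% of genes. In the longer window of 250 bases before to 50 bases after the start, searched on both strands, CCGGAA, the core of ETS factor sites, was present in 32 members (54.2%) and in 16.7% of all genes. AAGATGG, the core of YY1 sites, was in 15.3% of members and 7.28% of genes, while the E-box CACGTG was in 10.2% and 8.09%. The TATA box letters TATAAA were in 10.2% of members and 15.7% of genes. These matches describe letters and not bound sites.

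The deposited tables held RSEM expected counts and TPM, a level that corrects for transcript length and depth. Libraries held 19725500 to 26649631 expected counts. The marker genes of the populations were checked first. Under DMSO, the mean level of Brachyury (T) mRNA was 316 ± 154 TPM (SD, n = 3) among E+F- libraries. Among E+F+ libraries it was 0.17 ± 0.035 TPM. The 6 primitive streak mesoderm markers summed to between 533 and 1324 TPM for each E+F- library and between 2.33 and 6.52 TPM for each E+F+ library, with Msgn1 listed at 0 in all 6 of the latter. The gated gene Kdr did not follow its label after reaggregation, its mean under DMSO being 46.0 ± 26.1 TPM for the Flk-1-negative and 10.96 ± 2.94 TPM for the Flk-1-positive gate. Eng lay between 1.92 and 11.2 TPM over all 18 libraries, and its ranges in the sorted and unsorted groups overlapped. The Wnt target Axin2 had group means under DMSO and IWR-1 of 68.2 and 20.02 TPM for E+F-, 31.6 and 18.3 TPM for unsorted, and 12.8 and 8.3 TPM for E+F+ cells.

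Libraries of Set 3 stood apart in cell type markers. The 8 primitive erythroid markers summed to 170 TPM (DMSO) and 584 TPM (IWR-1) in E+F- Set 3, against 10.7 to 21 TPM in the other 4 E+F- libraries. In unsorted Set 3 they summed to 2328 and 2591 TPM, against 64.4 to 120 TPM in Sets 1 and 2, and in E+F+ libraries to 754 to 9369 TPM. At least 7 of these 8 markers were above 0 in every library. In bulk RNA, fewer cells of a type and less RNA per cell cannot be told apart. Results that rest on the E+F- Set 3 libraries are given with and without them, a choice made after seeing the data. The part of the erythroid markers in those results was not tested.

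The ribosomal protein genes filled 64 of the 100 highest places by mean TPM, 70 of the 79 had a mean above 1000 TPM, and together they took 9.06% to 13.9% of a library's expected counts and 22.9% to 31.9% of its TPM. The small subunit genes summed to 0.703 to 0.733 times the large subunit genes in TPM in every library, a highest-over-lowest ratio of 1.04 where that of the members' summed TPM was 1.39. The 76 mitochondrial ribosomal protein genes, which serve the separate ribosome of mitochondria, summed to 0.655% to 0.841% of TPM.

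Levels differed widely between members. The highest mean belonged to Rplp1, a protein of the P stalk that recruits elongation factors, at 10532 TPM with a range of 9661 to 11448 TPM over the 18 libraries. Rpl41, the smallest ribosomal protein, followed at 8618 TPM, then Rps2, of the mRNA entry channel, at 7742 TPM and Rps12 at 7661 TPM. The neighbours Rps2 (6959 to 9557 TPM) and Rps12 (5830 to 10022 TPM) overlapped in their ranges over libraries. Only 5 members had a mean under 20 TPM: Rpl24 at 8.73, Rpl10l at 1.04, Rpl39l at 0.34, Rpl3l at 0.087 and Rps27, which was listed at 0 in all 18 libraries. Rpl10l, Rpl39l and Rpl3l are paralogs of Rpl10, Rpl39 and Rpl3 that are known from testis or muscle. RSEM divides reads shared between near-identical copies by a model, so the levels of paralogs and of genes with many processed copies are uncertain.

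The annotation behind the table bears on some of these levels. A gene entry spelled RPL24 in capitals held 2024 to 2614 TPM, 13543 to 24016 counts, whereas the member Rpl24 held 6.55 to 10.5 TPM and 461 to 652 counts. Both entries were compared with the other members: the correlation of their log2 CPM (counts scaled to library size) with the median of the members was 0.92 for RPL24 and -0.40 for Rpl24 over the 18 libraries, as a description. All values of Rpl24 below are those of the entry with few counts. Rps27, a small subunit gene of the Diamond-Blackfan anaemia list, had 0 counts in all 18 libraries. Its 0 cannot be read as absence of the mRNA, since the part of the annotation in it was not tested. Rps15a, a small subunit protein, had a mean of 214 TPM and its values came to 67.2 counts per TPM, against a median of 9.73 over the members. Its transcript length in the GENCODE annotation was 5179 bases, the longest among the members, whose median was 791 bases. The lengths that RSEM used for TPM were not examined. Rpl24, with 677 bases in GENCODE, came to 63.4 counts per TPM.

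**Figure D1:**
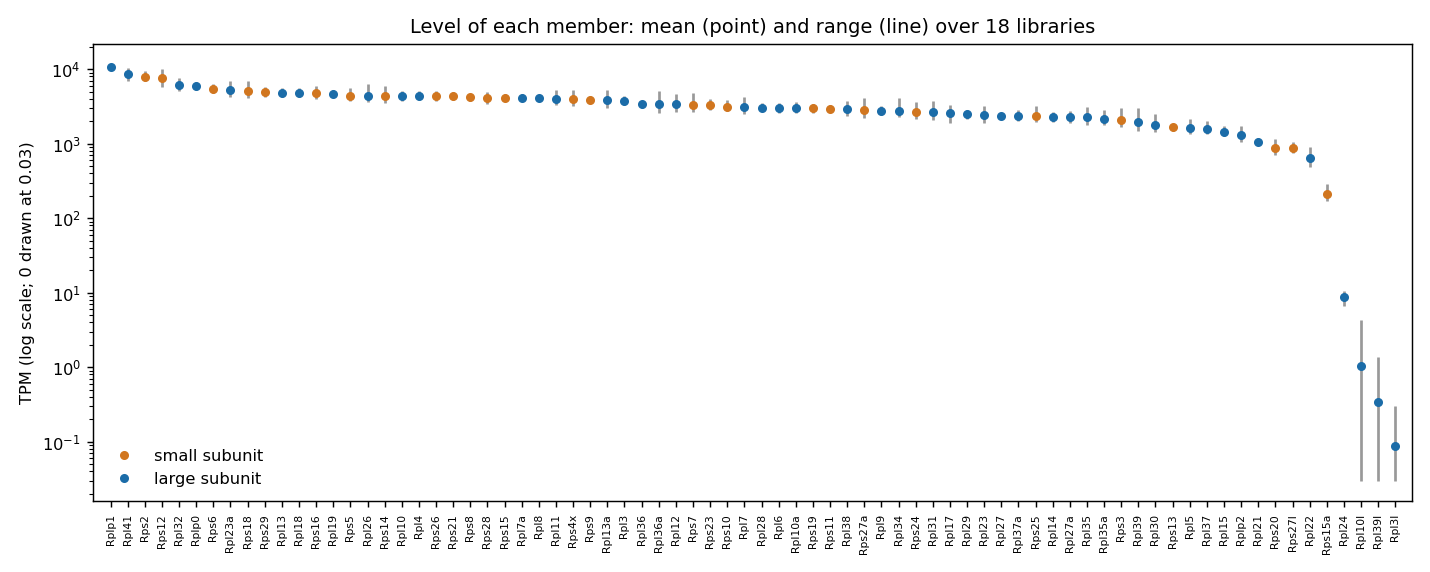
The mean TPM over the 18 libraries is plotted for 76 members on a log axis (points; orange small subunit, blue large subunit), with a line for its lowest to highest library. Most members lie above 1000 TPM, and the 4 drawn members with a mean under 20 TPM stand at the right.

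The members varied together. The standard deviation (SD) of log2 CPM over the 18 libraries had a median of 0.20 among the 76 members that passed the filter on low counts and 0.30 among all 13826 genes tested. Of these 76 members, 71 lay below the median of all genes. Most members are among the most abundant genes, and neither this comparison nor the next was matched for level. The correlation of a member with the median of the other members, over 18 libraries, had a median of 0.95 and was above 0.8 for 64 of 76 members (84.2%), against 203 of 13750 other genes (1.48%). Points of such a correlation share libraries, so it gives a description without a test. The lowest correlations belonged to Rpl10l (-0.57), Rpl24 (-0.40), Rplp2 (0.52), Rpl14 (0.55), Rps2 (0.56), Rpl8 (0.59) and Rplp0 (0.60). 2 of the 3 P stalk proteins were among them. Among members with a mean above 20 TPM, Rpl39 ranged most, with a highest level 2.00 times its lowest, and this ratio was 1.93 for Rpl36a. Rplp1 and Rpl8 (1.18), and Rpl7a and Rps15 (1.19), ranged least.

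**Figure D2:**
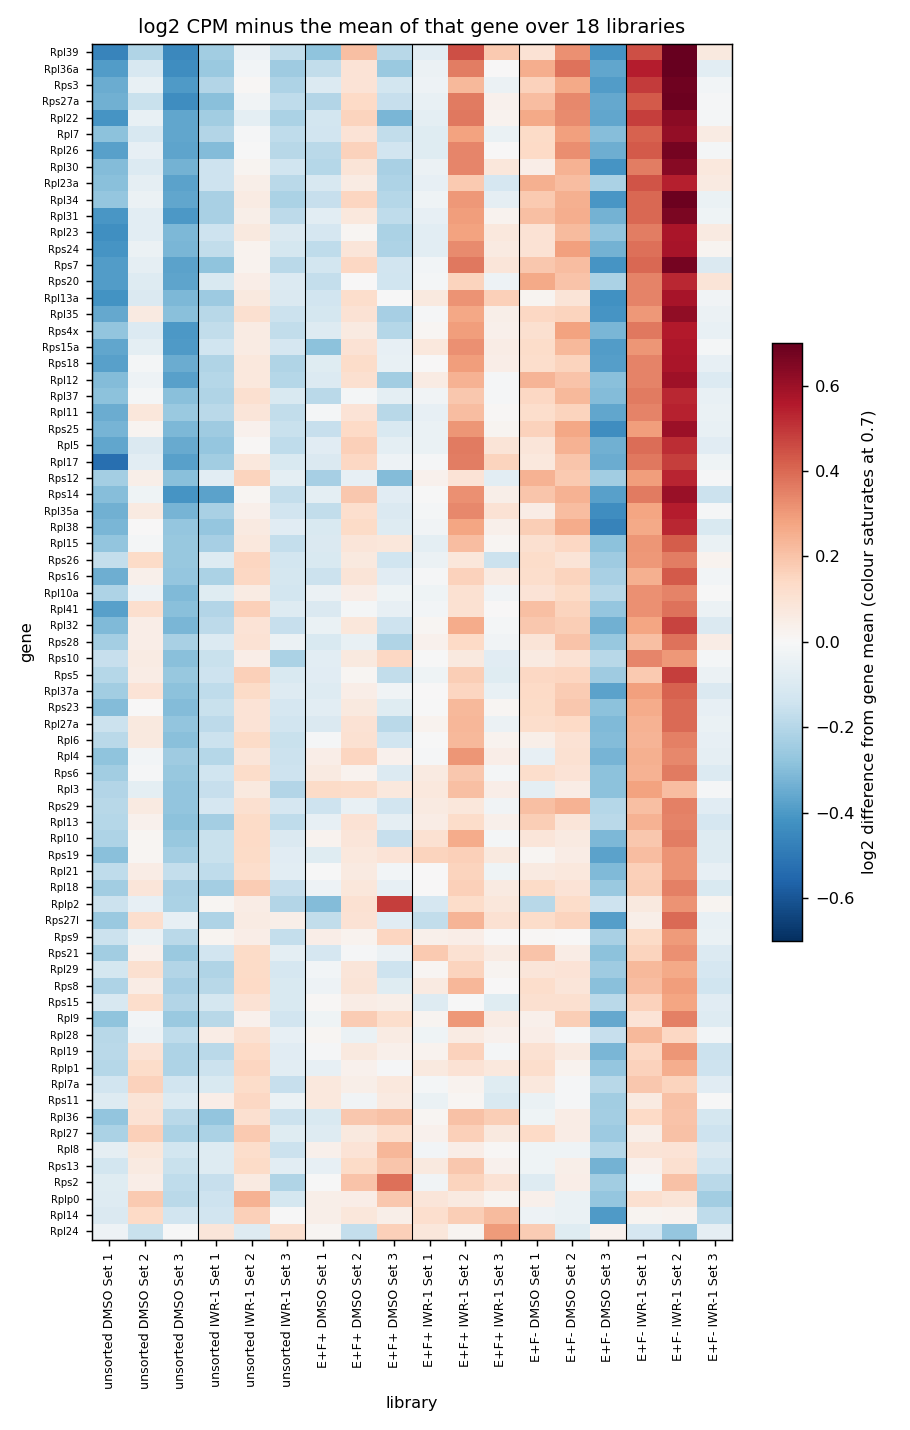
Rows are 73 tested members (Rpl10l and a few others are not drawn), columns the 18 libraries grouped by population and treatment, and colour is the difference of log2 CPM from the mean of the gene (red higher, blue lower, saturating at 0.7). The median member was 0.40 above its mean in E+F- IWR-1 Set 2 and 0.30 below it in E+F- DMSO Set 3.

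The summed share of counts was higher with IWR-1 than with DMSO in each population. In unsorted cells it was 9.28%, 10.4% and 9.06% in Sets 1, 2 and 3 under DMSO and 10.0%, 11.3% and 10.1% under IWR-1. In E+F+ cells it was 9.89%, 10.8% and 9.97% under DMSO and 10.7%, 11.9% and 10.7% under IWR-1. In E+F- cells it was 11.9%, 12.0% and 9.43% under DMSO and 13.1%, 13.9% and 10.8% under IWR-1. The IWR-1 library was the higher of its pair in 9 of 9 pairs, but the ranges of the DMSO and IWR-1 groups overlapped in all 3 populations. The ratio of IWR-1 to DMSO was 1.09 ± 0.018 (SD, n = 3 pairs) in unsorted, 1.08 ± 0.015 in E+F+ and 1.13 ± 0.031 in E+F- cells. This share is a score over the members and is given without a test. It is a fraction of a total, and an absolute change was not measured. Summed levels of some cell type markers also differed with IWR-1, while edgeR called 0 of the tested markers of the 3 lists that follow. The 4 neuroectoderm markers summed to 0.71 to 3.23 TPM under DMSO and 25.6 to 27.8 TPM under IWR-1 in E+F- cells, where Neurog2 was listed at 0 in all IWR-1 libraries and Pax6 in all DMSO libraries. The same sum was 0.64 to 4.68 and 4.91 to 57.4 TPM in unsorted cells, and at most 0.46 TPM in E+F+ cells. The 5 cardiac markers summed to 20.71 to 29.25 TPM under DMSO and 58.4 to 117 TPM under IWR-1 in unsorted cells, 13.1 to 24.7 and 35.2 to 53.5 TPM in E+F+ cells, and 22.8 to 39.6 and 34.6 to 181 TPM in E+F- cells. The 5 pluripotency markers, all above 0, summed to 108 to 330 and 183 to 752 TPM in unsorted cells, 12.5 to 25.4 and 7.72 to 23.5 TPM in E+F+ cells and 83.3 to 378 and 299 to 977 TPM in E+F- cells, and these ranges overlapped. The part of these markers in the higher share was not tested.

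**Figure D3:**
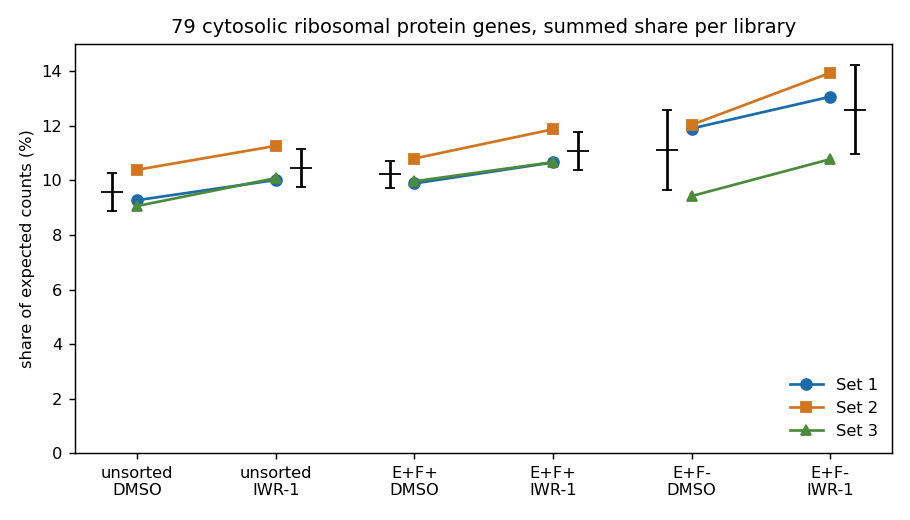
The summed share of expected counts (%) of the 79 members is shown for each library, with lines joining DMSO and IWR-1 of a Set and black bars for group means ± SD (n = 3). Every line runs upwards from DMSO to IWR-1, by ratios of 1.07 to 1.16, and E+F- Set 3 lies below the other E+F- libraries.

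The question of the IWR-1 comparisons is how blocking canonical Wnt signalling changed the genes of each population. In 9 pairs of libraries from the same population and Set, 54 to 75 of the 76 tested members were higher with IWR-1, where 48.6% to 52.9% of all genes were. Of the members, 40 were higher in all 9 pairs, against 4.29% of all genes tested. Because the members varied together, such counts are not independent observations and are given as a description. The members that were higher in the fewest pairs were Rpl7a, Rpl8, Rps15 and Rps2, each higher in 4 of 9.

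No single member passed the adjusted threshold for IWR-1. On simulated counts the edgeR fit recovered 25% of genes changed 1.5-fold and 73% of those changed 2-fold. The median fold of the members was 1.07 in unsorted, 1.08 in E+F+ and 1.16 in E+F- cells. Counts of 0 therefore cannot show that changes of this size were absent. The edgeR quasi-likelihood test with Benjamini-Hochberg adjustment over all 13826 genes called 0 of 76 members in unsorted cells, where it called 0.094% of all genes, 0 in E+F+ cells (0.0%) and 0 in E+F- cells (0.521%). At an unadjusted p under 0.05 it marked 0, 0 and 3 members, against 8.69%, 5.03% and 7.83% of all genes. DESeq2 (1.13%, 0.217% and 1.56% of all genes) and limma on log2(TPM + 1) (0.233%, 0.00803% and 0.852%) also called 0 members in each population. The median log2 fold change of the members was 0.10 in unsorted, 0.11 in E+F+ and 0.22 in E+F- cells, against 0.02, 0.01 and 0.01 among all genes, and the fold change was above 0 for 74, 65 and 74 of 76 members. All 3 Sets were higher with IWR-1 for 61 members in unsorted cells (26.0% of all genes), 51 in E+F+ cells (22.0%) and 70 in E+F- cells (18.9%). A fit with the Set as a block, which pairs the libraries, called 0 members in these 3 comparisons as well (0.868%, 0.0651% and 1.49% of all genes). On the log2 CPM scale the IWR-1 and DMSO groups were apart, IWR-1 higher, for 0 members in unsorted (5.42% of all genes), 5 in E+F+ (6.21%) and 1 in E+F- cells (5.61%), and IWR-1 lower for 0 (5.63%), 2 (7.41%) and 0 (6.65%). The difference of the IWR-1 effect between populations was tested directly. For E+F+ minus E+F-, E+F+ minus unsorted and E+F- minus unsorted, 0 members passed (0.0289%, 0.0% and 0.0% of all genes), and 0 had an unadjusted p under 0.05 (3.9%, 1.12% and 2.34%). The members' median difference was -0.13, 0.006 and 0.12 in that order, and it was above 0 for 6, 41 and 72 of 76 members. DESeq2 (0.174%, 0.0% and 0.0506% of all genes) and limma (0.153%, 0.0% and 0.0241%) also called 0.

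Rpl39, a small protein of the exit tunnel and the member of this kind that ranged most, shows these sizes. Its level in E+F- cells was 2062, 2416 and 1628 TPM under DMSO and 2559, 2983 and 2138 TPM under IWR-1 in Sets 1, 2 and 3. In E+F+ cells it was 1551, 2116 and 1601 TPM and 1807, 2490 and 2153 TPM. In unsorted cells it was 1489, 1585 and 1505 TPM and 1766, 1827 and 1785 TPM. Every Set was higher with IWR-1. In TPM the unsorted groups did not overlap and those of both sorted populations did, while in log2 CPM all overlapped. The log2 fold changes were 0.42 in E+F-, 0.28 in E+F+ and 0.22 in unsorted cells, with edgeR adjusted p of 0.643, 0.997 and 0.834.

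**Figure D4:**
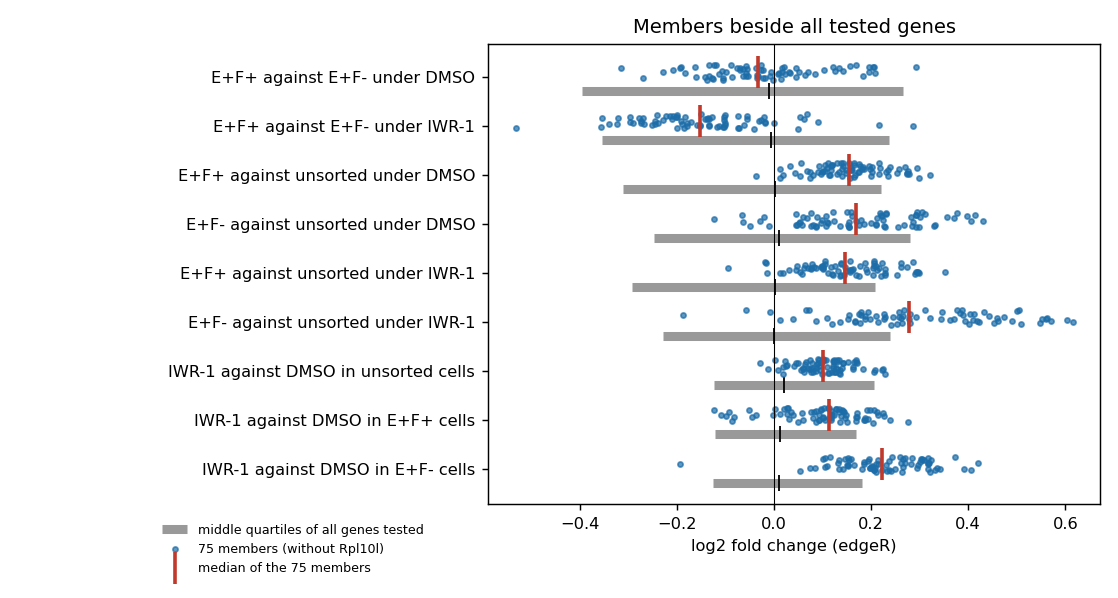
For each of 9 comparisons the edgeR log2 fold changes of 75 members (without Rpl10l) are shown as blue points with their median in red, above a grey bar for the middle quartiles of all 13826 genes and a black tick for their median. Most members lie right of 0 in the 3 IWR-1 comparisons and in the comparisons with unsorted cells.

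Between E+F- and unsorted cells under IWR-1, where the members were higher by a median log2 fold change of 0.27, 0 of 76 passed the adjusted threshold in edgeR, where 2.66% of all genes passed. DESeq2 called 2 members (7.46% of all genes) and limma 1 (4.46%), all higher, and 35 members had an unadjusted p under 0.05 (21.4%). In log2 CPM all 3 E+F- libraries lay above all 3 unsorted libraries for 8 members (9.53% of all genes) and below them for 0 (9.52%). Here the 3 same-Set correlations of the deviations paired the libraries, and the fit with the Set as a block called 32 members higher and 1, Rpl10l, lower, against 12.4% of all genes in either direction and 5.62% higher. Among these were Rpl23a (log2 fold change 0.45 ± 0.087 SE, adjusted p = 0.00768), Rpl7 (0.49, 0.00799), Rpl26 (0.53, 0.0120) and Rps3 (0.53, 0.0120), all by edgeR. Rpl23a and Rpl26 lie at the exit of the peptide tunnel, and Rps3 at the entry of the mRNA channel. The members called higher comprised 11 of 29 small subunit and 21 of 47 large subunit genes. The unpaired count depended on Set 3: leaving out E+F- IWR-1 Set 3 it was 25 higher (4.31% of all genes). Without both E+F- Set 3 libraries, a choice made after seeing the data, it was 37 higher (5.19%). The library left out first was the lowest of its group, with a median member deviation of -0.05 against 0.27 and 0.40, and unsorted Set 3 was kept. Leaving out all Set 3 libraries gave a smaller count, listed with the alternatives below. The populations also differed in cell type markers: the 6 primitive streak mesoderm markers, all above 0, summed to 533 to 726 TPM in these E+F- libraries and to 38.6 to 523 TPM in the unsorted ones, and their part in the result was not tested.

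The genes called higher in the paired fit, where 5.62% of all genes were, are given by role and stand beside the share of all members above. Of the 2 proteins of the 5S particle, Rpl5 and Rpl11, which bind the p53 regulator Mdm2, both were called. Of the 3 P stalk proteins Rplp0, Rplp1 and Rplp2, 0 were called. Of 9 proteins around the exit of the peptide tunnel 6 were called, namely Rpl22, Rpl23a, Rpl26, Rpl31, Rpl35 and Rpl39, and of 6 along the mRNA channel of the small subunit 2. Of 18 tested genes of Diamond-Blackfan anaemia 11 were called, and Rps19, the gene most often affected in that disease, was not. These lists were chosen with earlier results known and carry no test of their own, and differences between roles were not tested. Over 21 alternatives to the unpaired fit, Rpl5 was called in 5, Rpl11 in 4, Rpl39 in 6 and each P stalk gene in 0. The median log2 fold change without the block was 0.46 for the exit tunnel list, 0.41 for the 5S particle, 0.38 for the anaemia genes and 0.12 for the P stalk, against 0.27 for all members.

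Rpl5 illustrates the 5S particle. Its level was 1458, 1581 and 1495 TPM in unsorted and 2062, 2120 and 1622 TPM in E+F- cells under IWR-1, so that the groups did not overlap in TPM, while in log2 CPM they did. The log2 fold change was 0.43 ± 0.11 (SE) with the block, with an adjusted p of 0.0258 in edgeR. Rplp0, the scaffold of the P stalk, was at 5736, 6735 and 5613 TPM in unsorted and 6122, 5694 and 5218 TPM in E+F- cells, and these ranges overlapped. In the fit without the block, where Rpl5 was not called either, the log2 fold change of Rplp0 was -0.01, with an edgeR adjusted p of 0.979. Rps19 was at 2914, 3186 and 2951 TPM and 3373, 3402 and 2970 TPM, also overlapping.

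Between E+F+ and E+F- cells the question is which genes the Flk-1 gate separates. Under DMSO 0 of 76 members were called, where edgeR called 26.6% of all genes, and 3 members had an unadjusted p under 0.05 (38.7%). DESeq2 called 0 members (29.8% of all genes) and limma 5, all lower (24.4%). The groups were apart in log2 CPM for 5 members with E+F+ higher (20.8% of all genes) and 1 with E+F+ lower (22.6%). Under IWR-1, 2 members, Rpl10l among them, were called lower and 0 higher, against 22.5% of all genes, and the members had a median log2 fold change of -0.15. The groups were apart in log2 CPM for 2 members with E+F+ higher (18.6% of all genes) and 2 with E+F+ lower (19.5%). Leaving out the E+F+ library of Set 1 or of Set 2, or the E+F- library of Set 3, ended the call of Rpl10l, with edgeR adjusted p of 0.0916, 0.0905 and 0.119. It was kept in 13 of 20 alternatives (adjusted p 0.00474 to 0.261), and was also lost with limma, without all Set 3 libraries, without both E+F- Set 3 libraries and in the block on Sets 1 and 2 only. Rpl10l passed the low-count filter through libraries outside E+F+, so this call carries the limit given below. With the Set as a block, 7 members were called lower and 1 higher (31.0% of all genes). The lower ones included Rpl10l, Rpl23a (-0.35), Rps26 (-0.27), Rpl7 (-0.31), Rps3 (-0.34) and Rps20 (-0.29), and the higher one was the low-count entry Rpl24 (0.29, adjusted p = 0.0224). Without the block, edgeR gave this entry 0.29 (adjusted p = 0.100). The entry RPL24, which held far more counts, had -0.02 in that fit (adjusted p = 0.931). Without both E+F- Set 3 libraries 13 members were called lower under IWR-1 (11.1% of all genes) and 5 under DMSO (12.5%). The erythroid markers, at 754 to 9369 TPM in E+F+ and 10.7 to 584 TPM in E+F- libraries, moved with this comparison, and their part was not tested.

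Between the sorted populations and unsorted cells under DMSO the members were higher by a median log2 fold change of 0.15 in E+F+ and 0.16 in E+F- cells, in 74 and 68 of 76 members, and these comparisons share the unsorted libraries. In E+F- cells 0 members were called (9.48% of all genes), 3 had an unadjusted p under 0.05 (26.8%), DESeq2 called 0 (14.2%) and limma 3, all higher (10.0%). Without both E+F- Set 3 libraries 17 were called higher (5.95% of all genes). In E+F+ cells 1 member, Rpl10l, was called lower (10.6% of all genes), and with the block Rpl3, next to the peptidyl transferase centre, was also called higher (0.30 ± 0.08 SE, adjusted p = 0.0171, 20.3% of all genes). Rpl3 was at 3469, 3405 and 3297 TPM in unsorted and 4037, 3892 and 3753 TPM in E+F+ cells, all 3 of the latter above the former. It was called in 4 of 21 alternatives (adjusted p 0.0171 to 0.236), and the quoted value with the block is the lowest of these. Under IWR-1 the E+F+ median was 0.14 and Rpl10l was again the 1 member called (10.0% of all genes, and 1 of 76 with the block, at 19.5%).

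Rpl10l, a single-exon gene on chromosome 12 that in mouse takes over for the X-linked Rpl10 in male germ cells, had the lowest correlation with the other members. Its counts in Sets 1, 2 and 3 were 34.0, 6 and 26 in unsorted cells under DMSO and 52, 15 and 36 under IWR-1. In E+F+ cells they were 3, 0 and 2 under DMSO and 0, 0 and 1.01 under IWR-1, and in E+F- cells 8, 4 and 14 under DMSO and 3, 6 and 17 under IWR-1. All E+F+ libraries lay below all unsorted libraries. The ratio of summed CPM of E+F+ to unsorted cells was 0.0723 under DMSO (exact binomial 95% interval 0.0227 to 0.177, counting error only) and 0.0100 under IWR-1 (0.000252 to 0.0572). The edgeR test gave adjusted p of 0.0323 and 0.00741, and the fitted log2 fold changes of -3.64 and -6.15 depend on the prior count at these counts. Rpl10l passed the low-count filter through unsorted and E+F- libraries, since no E+F+ library held more than 3 counts. The reported tests of E+F+ as lower therefore concern a gene kept where it was high, and give no independent support. Under IWR-1 the call was kept in all 21 alternatives that gave a value (adjusted p 0.000372 to 0.0376). Under DMSO it was kept in 13 of 20 (0.00318 to 0.115), and it was lost with limma, without all Set 3 libraries, and when unsorted Set 1 or 3 or any E+F+ library was left out (adjusted p 0.0623 to 0.115 over these 5 libraries).

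The parent gene Rpl10, a large subunit protein that joins late in ribosome assembly, was not called in these comparisons. Its level in Sets 1 to 3 under IWR-1 was 4242, 4658 and 4249 TPM in unsorted, 4638, 4920 and 4250 TPM in E+F+ and 4814, 5098 and 4325 TPM in E+F- cells, and the groups overlapped. Between E+F+ and unsorted cells its log2 fold change was 0.14 ± 0.14 (SE) under DMSO and 0.16 ± 0.14 under IWR-1, with edgeR adjusted p of 0.565 and 0.523. Reads of Rpl10 that fit Rpl10l equally well are divided by RSEM, so the low counts of Rpl10l are uncertain.

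The fold changes of the members varied with the GC content of their GENCODE transcripts, which ran from 41.3% to 60.8% with a median of 51.6%. Over 75 members, the Pearson correlation of GC content with the log2 fold change was -0.46 for IWR-1 in unsorted, -0.44 in E+F+ and -0.33 in E+F- cells, and -0.38 for E+F- against unsorted cells under IWR-1. It was -0.46 for E+F- and -0.17 for E+F+ against unsorted cells under DMSO, and -0.30 for E+F+ against unsorted cells under IWR-1. For E+F+ against E+F- cells it had the opposite sign, 0.36 under DMSO and 0.28 under IWR-1. These points share libraries and are given as a description. Among all 13168 genes with a GC value the Pearson correlation was between -0.08 and -0.01 over the 9 comparisons. The rank (Spearman) correlation of all genes was between -0.16 and 0.04. With offsets adjusted for GC content the members' median IWR-1 effect was 0.06 in unsorted, 0.09 in E+F+ and 0.19 in E+F- cells. The median of E+F+ against unsorted cells under IWR-1 moved the other way, from 0.14 to 0.28. With these offsets the paired comparison of E+F- with unsorted cells under IWR-1 called 16 members in place of 33.

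**Figure D5:**
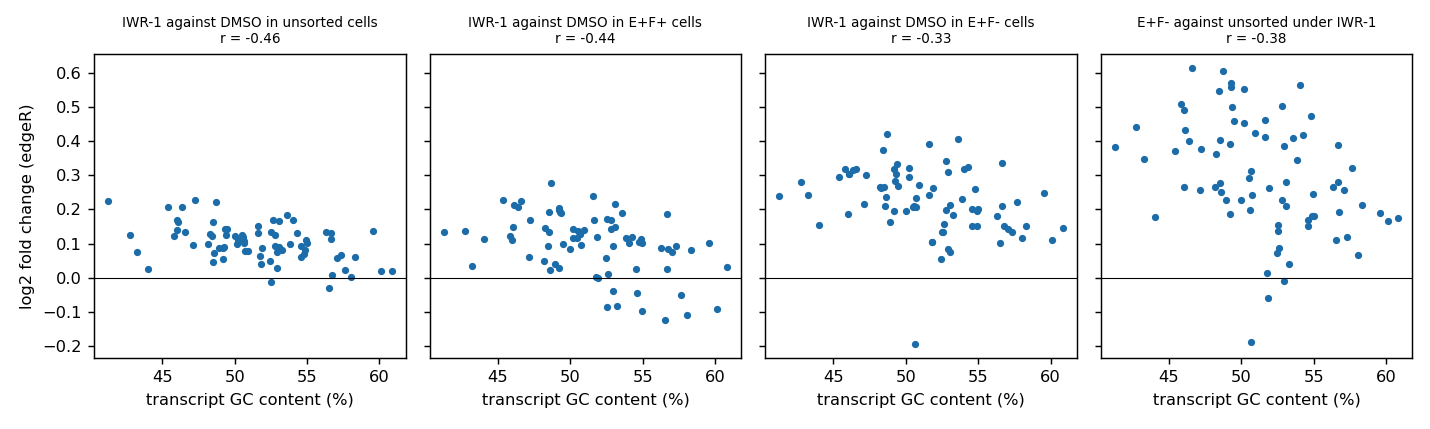
Each panel plots the edgeR log2 fold change of 75 members (without Rpl10l) against the GC content of their transcript (%), for the 3 IWR-1 comparisons and for E+F- against unsorted cells under IWR-1. In these 4 comparisons members of lower GC content tended to have the higher fold changes, with r of -0.46, -0.44, -0.33 and -0.38.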

How the data were processed

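RNA-seq libraries (TruSeq kit, version 2, which does not mark strand; single reads of 51 bases) of 18 samples were processed by the authors. The submitters' processing notes name CASAVA 1.8.2 for base calls, RSEM 1.2.3 for quantification with Bowtie 0.12.9 inside it, and build mm10, and the transcripts were RefSeq models. The authors deposited expected counts per gene, not normalised, and TPM per gene. All sample columns of both tables were matched to labels, and 0 columns went unmatched.

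Expected counts were rounded and tested with edgeR 4.0.16 (R 4.3.3, quasi-likelihood, TMM factors from 0.949 to 1.08, low-count filter by group, 1 coefficient per group, all 18 libraries, Benjamini-Hochberg over 13826 genes, threshold 0.05). The study's own method, EBSeq, was not used here. 76 of 79 members passed the filter, and Rps27, Rpl3l and Rpl39l did not. TPM gave levels, and log2 CPM used a prior count of 2. DESeq2 1.42.0 and limma 3.58.1 on log2(TPM + 1) were alternatives, as were other filters and factors, left-out libraries, GC-adjusted offsets and the Set as a block. The main fit was tested on simulated counts, where it recovered 25% of genes changed 1.5-fold and 73% of those changed 2-fold.

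Set numbers were taken as pairing libraries where all 3 same-Set correlations of deviations from group means exceeded 0.1. This held for all comparisons but E+F+ against E+F- and E+F- against unsorted cells under DMSO (over all comparisons, -0.0082 to 0.75). The cut-off separated narrowly: in Set 1 under DMSO, E+F+ against E+F- had 0.0977 and E+F+ against unsorted 0.1002. In some accepted comparisons another Set came close. For IWR-1 in E+F- cells the values were 0.345 against 0.327 in Set 1 and 0.466 against 0.403 in Set 2. For E+F- against unsorted cells under IWR-1 they were 0.255 against 0.176 in Set 1. The members and lists were chosen with earlier results of these data known. Named genes were the 5 highest and 5 lowest members by mean TPM, the paralogs with their parents, members of the P stalk, 5S particle and anaemia lists, Rpl38, and up to 5 called members per direction and comparison by adjusted p. A few members that this rule names are not reported here. Others were named for their range, correlation or pairs after their values were seen.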

Additional observations from a re-analysis of the deposited data

How the results depend on the processing

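Of the alternative counts of called members, 219 stayed within 1.5 times the reported count and 51 moved. The causes of the moves were not tested. They concern 6 comparisons, of which 5 are lettered: A, E+F+ with E+F- cells given DMSO; B, the same pair given IWR-1; C, E+F+ with unsorted cells given DMSO; D, E+F- with unsorted cells given DMSO; and E, the latter pair given IWR-1. The reported counts were 0 (A), 2 (B), 1 (C), 0 (D) and 0 (E). With the Set as a replicate block they were 5 (A), 8 (B), 2 (C), 9 (D) and 33 (E), and the block changed no other count. In A and D the Set numbers did not pass the pairing check. With limma on log2(TPM + 1) they were 5 (A), 7 (B), 0 (C), 3 (D) and 1 (E), and DESeq2 gave 2 in E. Without a filter on low counts A was 1 and C was 2, and with only the groups compared B and C were 0. Without all Set 3 libraries B was 1, C was 0 and E was 9. Leaving out 1 library at a time gave 0 to 1 in A, 0 to 3 in B, 0 to 2 in C, 0 to 2 in D and 0 to 25 in E.

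Other alternatives were chosen after seeing the data. Without both E+F- Set 3 libraries the counts were 5 (A), 13 (B), 3 (C), 17 (D) and 37 (E). The replicate block with TMM factors computed without the members gave 2 (A), 8 (B), 2 (C), 5 (D) and 28 (E). The block on Sets 1 and 2 only gave 7 (A), 31 (B), 29 (D) and 43 (E), and 4 in place of 1 for E+F+ with unsorted cells given IWR-1. The block with GC-adjusted offsets gave 1 (A), 6 (C), 1 (D) and 16 (E), and 3 for E+F+ with unsorted cells given IWR-1. The log2 fold change of Rplp0 in E, -0.0087 as reported, was 0.0372 without all Set 3 libraries, 0.0972 without both E+F- Set 3 libraries, 0.0437 in the block on Sets 1 and 2, 0.0491 with GC-adjusted offsets and 0.0487 with these and the block. It ranged from -0.0829 to 0.138 when 1 library was left out. Of the medians of the members, 44 stayed within the spread and 1 moved, that of E+F+ with unsorted cells given IWR-1 with GC-adjusted offsets (0.28). Depth limits Rpl10l, whose counts reach 0, and the members that did not pass the filter.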

Other observations

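Genes that work beside the ribosomal proteins were counted with the same edgeR test over all genes. Of 30 tested ribosome biogenesis genes, 3 were called lower in E+F+ than in unsorted cells under DMSO and 0 higher, against 10.6% of all genes called in either direction, which is near the share in the list: Heatr1 (log2 fold change -0.44) and Utp20 (-0.39), of the small subunit processome, and Rrp12 (-0.60). The median of that list was -0.27, while the ribosomal protein genes had a median of 0.15 in the same comparison. Of 76 mitochondrial ribosomal protein genes, 6 were called higher in E+F+ than in E+F- cells under DMSO and 0 lower, a smaller share than the 26.6% of all genes called in either direction, among them Mrpl14 (0.78, adjusted p = 0.00244 by edgeR), Mrps35 (0.43) and Mrpl45 (0.31).

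Ribosomal protein genes that the symbol rule left out were compared with the members over the 18 libraries, as a description. The correlation of log2 CPM with the median of the members was 0.98 for Rps3a1 and 0.95 for Rpsa. For E+F- against unsorted cells under IWR-1, 3 of the 7 such genes tested were called higher in the edgeR fit with the Set as a block, where 5.62% of all genes were. Without the block 0 of the 7 were called, against 2.66% of all genes.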
